A study of Mus musculus with 9 samples.

Results

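The 10 genes described here encode receptors, bridging proteins and complement subunits: Mertk, Axl, Stab1, Cd163, Mfge8, Gas6, Thbs1, C1qa, C1qb and C1qc. The products of all but Cd163 act in the binding and uptake of dying cells by macrophages. All 10 genes were chosen by gene symbol, with earlier results of these data known, from the 19505 named genes on the arrays. The choice was made with their levels by group and by array number in view, so their differences are given as a description. Each is represented by 1 probe set. Of the 10, 9 passed a filter on dim probe sets (a mean over the arrays of at least 5.66 on the log2 scale), as did 10042 genes in all. Cd163, the macrophage receptor for haptoglobin-bound haemoglobin, did not pass and is given by its levels alone.

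RNA came from macrophages grown from the bone marrow of wild-type C57BL/6 mice, on 9 arrays in 3 groups of 3. The first group received 150 ng/ml recombinant mouse lipocalin 2 (LCN2, a secreted protein that binds iron-carrying siderophores) from day 0 of culture. The second received LCN2 from day 7, with no dose stated in the labels, and the third received vehicle. All groups were grown for 7 days with macrophage colony-stimulating factor and 10% serum. The concentration of that factor is given as 10 ng/ml in one place of the labels and 20 ng/ml in another, and all cells then received 20 ng/ml interleukin 4 (IL-4) for 24 h. IL-4 drives macrophages towards an anti-inflammatory state, and no array without it was used here, so the levels are those of IL-4-treated cells. Whether replicates were separate mice, separate cultures or repeated hybridisations is not stated, so the p-values cover the spread among these 9 samples alone, part of which may be technical.

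Dying cells expose phosphatidylserine on their surface. MERTK and AXL are receptor tyrosine kinases that bind it through the bridging protein GAS6, and MERTK also through protein S. MFGE8 links it to integrins, and stabilin-1, the product of Stab1, binds it directly. C1q, which is assembled from the products of C1qa, C1qb and C1qc and starts the classical complement pathway, also coats dying cells, and thrombospondin-1, the product of Thbs1, bridges them to CD36 and an integrin. In macrophages the uptake of dying cells is known to be followed by cholesterol export and by lower output of inflammatory cytokines.

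Replicates carry the numbers 1 to 3 in the array titles, and the arrays numbered 1 stood apart from the other 6 in all groups. The first principal component held 62.5% of the variance and separated them. In limma, 3333 of 10042 genes (33.2%) differed between the arrays numbered 1 and those numbered 2 and 3, of which 1109 (11.0%) were higher and 2224 (22.1%) lower. What the numbers stand for is not stated, so each result is given by group and by number. No gene (0%) passed limma's test between any pair of groups, where 142 genes for LCN2 from day 0 against vehicle, 70 for LCN2 from day 7 against vehicle and 177 for LCN2 from day 0 against LCN2 from day 7 had an unadjusted p under 0.05. With the number as a block those counts were 497, 259 and 539, and again 0 genes passed after adjustment. Number 2 against number 3 gave 0 genes (0%), with 310 at an unadjusted p under 0.05.

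Promoter windows are shown for 5 members, because Mfge8, Mertk and Axl carried the differences by number and C1qb and C1qc belong to a cluster of C1q genes whose members are neighbours in the annotation. Each window runs 5′ to 3′ on the gene's strand, from 250 bases before to 50 bases after the annotated start, and comes from RefSeq on GRCm38.p6. A window was found for 8 of the 10 members. Thbs1 and C1qa are named only. Capitals mark matches on either strand to GGGCGG (the GC box bound by Sp factors), GAGGAA (a core of PU.1, the macrophage transcription factor, and of other ETS factors), TGCTGA (part of the site of Maf factors) and GGAATG (a TEAD site). Mfge8 lies at chr7:79149011-79149310, minus strand, Mertk at chr2:128698665-128698964, plus strand, and Axl at chr7:25788684-25788983, minus strand. C1qb lies at chr4:136886151-136886450 and C1qc at chr4:136892865-136893164, both on the minus strand.
Mfge8: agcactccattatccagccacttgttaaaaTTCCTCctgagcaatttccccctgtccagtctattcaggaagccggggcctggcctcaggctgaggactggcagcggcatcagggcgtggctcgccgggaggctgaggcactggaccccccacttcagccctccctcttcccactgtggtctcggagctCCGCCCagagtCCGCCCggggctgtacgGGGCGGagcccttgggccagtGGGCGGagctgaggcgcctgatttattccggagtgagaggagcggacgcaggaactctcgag
Mertk: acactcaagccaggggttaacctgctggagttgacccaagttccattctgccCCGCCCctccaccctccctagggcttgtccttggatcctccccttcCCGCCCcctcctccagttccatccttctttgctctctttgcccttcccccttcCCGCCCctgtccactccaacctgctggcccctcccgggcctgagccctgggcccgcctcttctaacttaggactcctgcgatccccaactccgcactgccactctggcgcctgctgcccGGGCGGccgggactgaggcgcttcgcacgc
Axl: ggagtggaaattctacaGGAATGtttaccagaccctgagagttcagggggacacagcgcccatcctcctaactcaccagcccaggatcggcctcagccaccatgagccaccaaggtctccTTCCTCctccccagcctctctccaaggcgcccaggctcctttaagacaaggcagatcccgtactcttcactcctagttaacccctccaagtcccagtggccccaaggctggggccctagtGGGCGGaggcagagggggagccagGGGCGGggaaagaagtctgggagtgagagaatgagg
C1qb: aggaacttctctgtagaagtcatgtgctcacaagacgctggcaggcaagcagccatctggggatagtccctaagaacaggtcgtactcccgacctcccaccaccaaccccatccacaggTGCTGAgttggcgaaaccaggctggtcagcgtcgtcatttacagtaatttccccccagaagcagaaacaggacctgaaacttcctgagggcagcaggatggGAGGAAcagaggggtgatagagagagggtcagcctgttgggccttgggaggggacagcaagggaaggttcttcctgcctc
C1qc: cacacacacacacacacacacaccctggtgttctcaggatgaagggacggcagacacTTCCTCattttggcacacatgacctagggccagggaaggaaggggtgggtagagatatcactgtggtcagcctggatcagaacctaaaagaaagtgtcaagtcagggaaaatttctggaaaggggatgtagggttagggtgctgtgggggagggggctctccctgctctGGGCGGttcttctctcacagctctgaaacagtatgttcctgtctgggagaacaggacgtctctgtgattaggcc

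The windows of Mfge8 and Mertk each held 4 GC boxes, that of Axl 2 and that of C1qc 1, while that of C1qb held none. Gas6, whose window is not printed, also held 4. Over all 32851 windows of the same length in the table, 35.7% held at least 1 GC box. The GAGGAA core was found once each in Mfge8, Axl, C1qb, C1qc and Stab1, against 28.3% of all windows. TGCTGA occurred once in C1qb and once in Stab1, against 19.5% of all windows, and GGAATG once in Axl, against 14.7%. A TTC and a GAA with 4 bases between them, the spacing STAT6 prefers downstream of IL-4, was in none of the 8 windows and in 6.95% of all windows. The AP-1 letters TGANTCA were also in none, against 7.81% of all windows. No motif matched in Cd163. The matches capitalised in the 5 sequences do not overlap each other. Mfge8 and Mertk, both higher on the arrays numbered 1, share GC boxes with Axl, which was lower there. They share them also with Gas6 and C1qc, which did not pass by number with the settings used here. The part of these motifs in the levels was not tested.

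**Figure D1:**
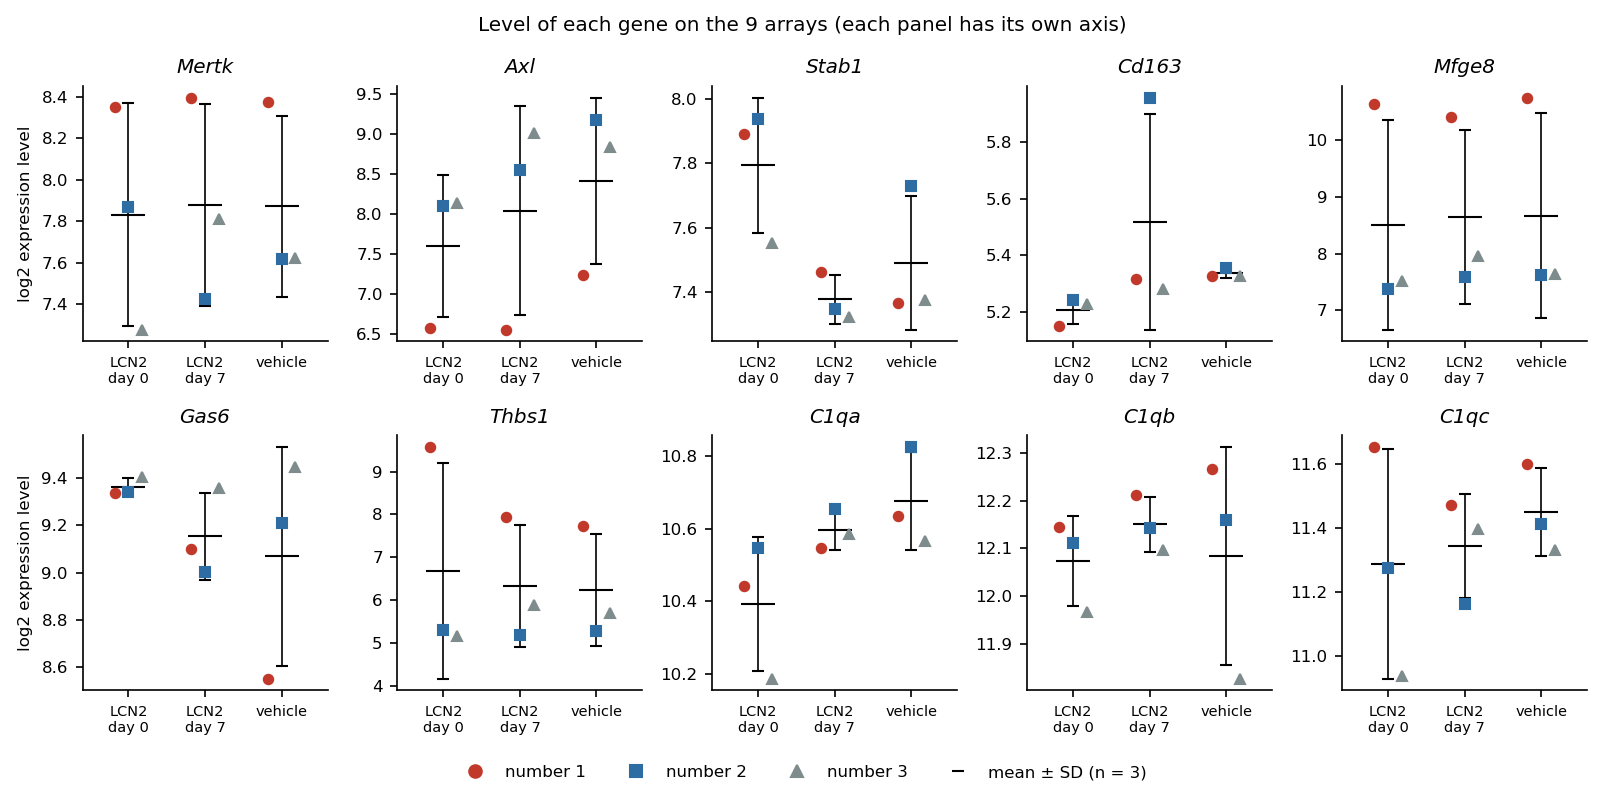
Log2 level (y axis) of each member on each of the 9 arrays, by group (x axis, LCN2 from day 0, LCN2 from day 7, vehicle), with marker shape and colour giving the title number and the line giving the group mean ± SD (n = 3). Each panel has its own axis. Mfge8, Thbs1, Mertk and Axl split by number within each group. The group means of Mfge8, Thbs1 and Mertk lie close together compared with that split, and those of Axl run from 7.60 to 8.42.

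Mertk, which encodes the main phagocytic tyrosine kinase of resting and anti-inflammatory macrophages, was higher on every array numbered 1. For numbers 1, 2 and 3, its log2 levels were 8.35, 7.87 and 7.28 with LCN2 from day 0, 8.40, 7.43 and 7.81 with LCN2 from day 7, and 8.38, 7.62 and 7.62 with vehicle. The arrays numbered 1 averaged 8.37 ± 0.02 (SD, n = 3) and the others 7.60 ± 0.22 (SD, n = 6), without overlap. The difference was 0.77 ± 0.14 (log2, SE), or 1.71-fold, and was nearly the same in each group, at 0.78 with LCN2 from day 0, 0.78 with LCN2 from day 7 and 0.76 with vehicle. By treatment, Mertk averaged 7.83 ± 0.54 with LCN2 from day 0, 7.88 ± 0.49 with LCN2 from day 7 and 7.87 ± 0.44 with vehicle (SD, n = 3 each), and the 3 groups overlapped. The difference from vehicle was -0.04 ± 0.34 for LCN2 from day 0 and 0.01 ± 0.34 for LCN2 from day 7 (log2, SE). Among the arrays numbered 2 and 3 the lowest and the highest level both came from cells given LCN2 from day 0.

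Axl, the related kinase that is usually raised by inflammatory stimuli and interferon, ran the other way by number. Its log2 levels for numbers 1, 2 and 3 were 6.58, 8.10 and 8.13 with LCN2 from day 0, 6.56, 8.54 and 9.01 with LCN2 from day 7, and 7.24, 9.17 and 8.83 with vehicle. The arrays numbered 1 averaged 6.79 ± 0.38 (SD, n = 3) and the others 8.63 ± 0.45 (SD, n = 6), so that all of them lay lower. This difference was -1.84 ± 0.16 (log2, SE), a level 3.58-fold lower on the arrays numbered 1, and ranked 42 by size among the 10042 genes. Within the groups it was -1.53 with LCN2 from day 0, -2.22 with LCN2 from day 7 and -1.77 with vehicle.

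Axl also had the widest gap between LCN2 from day 0 and vehicle among the members, but it did not pass the test. The group means were 7.60 ± 0.89 with LCN2 from day 0, 8.04 ± 1.30 with LCN2 from day 7 and 8.42 ± 1.03 with vehicle (SD, n = 3 each). Within numbers 1, 2 and 3, LCN2 from day 0 minus vehicle was -0.66, -1.08 and -0.70 (log2 differences), so that Axl lay lower with LCN2 within every number. The fitted difference was -0.81 ± 0.72 (log2, SE), the 6th largest of 10042 by size, and its SE was 0.18 with the number as a block. The levels of the 2 groups overlapped, because number 1 of vehicle lay below numbers 2 and 3 of LCN2 from day 0. For LCN2 from day 7 against vehicle the differences were -0.68, -0.63 and 0.18 within numbers 1, 2 and 3, with a fitted value of -0.38 ± 0.72, and leaving out vehicle number 1 or LCN2 from day 7 number 1 gave -0.97 or 0.36. Leaving out LCN2 from day 0 number 1 gave -0.30 for LCN2 from day 0 against vehicle, and leaving out vehicle number 1 gave -1.40, while leaving out all 3 arrays numbered 1 gave -0.89.

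Stab1, whose product stabilin-1 marks IL-4-treated macrophages, did not follow the numbers. Its log2 levels for numbers 1, 2 and 3 were 7.89, 7.94 and 7.55 with LCN2 from day 0, 7.46, 7.35 and 7.32 with LCN2 from day 7, and 7.37, 7.73 and 7.38 with vehicle. All 3 arrays with LCN2 from day 0 lay above all 3 with LCN2 from day 7, and overlapped those with vehicle. Between LCN2 from day 0 and LCN2 from day 7 the difference was 0.42 ± 0.15 (log2, SE), or 1.33-fold, with 0.43, 0.59 and 0.23 within numbers 1, 2 and 3. Against vehicle, LCN2 from day 0 gave 0.30 ± 0.15, with 0.53, 0.21 and 0.18 within the numbers. Neither difference passed the test over all genes. The arrays numbered 1 differed from the others by 0.03 ± 0.10.

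Cd163 was dim on all arrays. Its log2 levels for numbers 1, 2 and 3 were 5.15, 5.24 and 5.23 with LCN2 from day 0, 5.31, 5.96 and 5.28 with LCN2 from day 7, and 5.33, 5.35 and 5.33 with vehicle. The levels with LCN2 from day 0 lay below those of both other groups, by margins that are small beside the spread of LCN2 from day 7. Only number 2 of LCN2 from day 7 exceeded 5.66, the level set by the filter, so these values lie where RMA levels carry little signal.

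**Figure D2:**
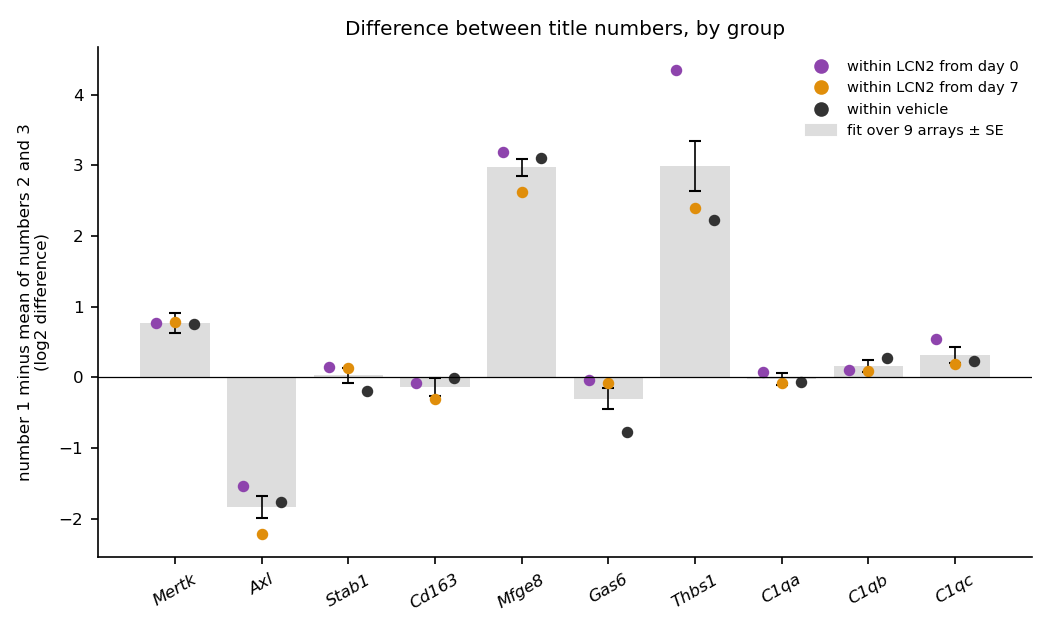
Log2 difference (y axis) of number 1 minus the mean of numbers 2 and 3 for each member, with bars for the fit over 9 arrays ± SE and points for the difference within each group. The points of Mfge8, Thbs1 and Mertk lie above 0 and those of Axl below 0 in all 3 groups, and Thbs1 has one point, at 4.35 with LCN2 from day 0, far above its other two.

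The bridging protein MFGE8, which binds phosphatidylserine at one end and the integrins alpha-v beta-3 and alpha-v beta-5 at the other, split by number with no array in between. Mfge8 log2 levels for numbers 1, 2 and 3 were 10.63, 7.37 and 7.52 with LCN2 from day 0, 10.40, 7.59 and 7.96 with LCN2 from day 7, and 10.74, 7.62 and 7.65 with vehicle. The arrays numbered 1 lay at 10.40 to 10.74 and all others at 7.37 to 7.96. The difference of 2.97 ± 0.12 (log2, SE), or 7.86-fold, ranked 6 of 10042 by size. It was 3.18 with LCN2 from day 0, 2.63 with LCN2 from day 7 and 3.11 with vehicle. Against that split the treatments differed little: LCN2 from day 0 minus vehicle was -0.11, -0.24 and -0.13 within numbers 1, 2 and 3, for a fitted difference of -0.16 ± 1.15, or ± 0.14 with the number as a block. In fits without the block, which such an omission leaves unbalanced by number, leaving out LCN2 from day 0 number 1 gave -1.22. Leaving out vehicle number 1 gave 0.87. LCN2 from day 7 minus vehicle was -0.34, -0.03 and 0.31 within the numbers.

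Thbs1, which encodes a matricellular protein that platelets and macrophages secrete, split in the same direction. Its log2 levels for numbers 1, 2 and 3 were 9.58, 5.29 and 5.17 with LCN2 from day 0, 7.93, 5.20 and 5.88 with LCN2 from day 7, and 7.72, 5.29 and 5.69 with vehicle. On numbers 2 and 3 the mean was 5.42 ± 0.29 (SD, n = 6), below the level set by the filter, so Thbs1 passed that filter through the arrays numbered 1, which averaged 8.41 ± 1.02 (SD, n = 3). No fold is given against a level below that of the filter. The difference of the listed log2 levels was 2.99, with 4.35 in LCN2 from day 0, 2.39 in LCN2 from day 7 and 2.23 in vehicle, and was 2.31 without number 1 of LCN2 from day 0. LCN2 from day 0 minus vehicle was 1.86, 0.00 and -0.52 within numbers 1, 2 and 3, with a fitted value of 0.45 ± 1.21. Leaving out single arrays took that value from -1.004 (without number 1 of LCN2 from day 0) to 1.20 (without number 3 of LCN2 from day 0).

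Gas6, the ligand shared by MERTK and AXL, passed no test. Its log2 levels for numbers 1, 2 and 3 were 9.34, 9.34 and 9.40 with LCN2 from day 0, 9.10, 9.003 and 9.36 with LCN2 from day 7, and 8.55, 9.21 and 9.45 with vehicle. The lowest value was that of vehicle number 1, and the 3 arrays with LCN2 from day 0 lay at 9.34 to 9.40. The difference of LCN2 from day 0 minus vehicle was 0.29 ± 0.21 (log2, SE), and 0.03 without vehicle number 1. Against LCN2 from day 7 it was 0.24, 0.34 and 0.04 within the numbers, with a fitted value of 0.21 ± 0.21. By number, Gas6 differed by -0.30 ± 0.14 and did not pass the test. Pros1, which encodes protein S, the other ligand of MERTK, differed between LCN2 from day 0 and vehicle by -0.36 ± 0.13 and between LCN2 from day 0 and LCN2 from day 7 by -0.36 ± 0.13, and did not pass either test.

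Of the 3 C1q subunits, none passed the test by number. C1qa, the A chain, had log2 levels for numbers 1, 2 and 3 of 10.44, 10.55 and 10.19 with LCN2 from day 0, 10.55, 10.66 and 10.59 with LCN2 from day 7, and 10.64, 10.83 and 10.57 with vehicle. Every array with LCN2 from day 0 lay below every array with vehicle. That difference was -0.28 ± 0.13 (log2, SE), a level 1.22-fold lower, with -0.19, -0.28 and -0.38 within numbers 1, 2 and 3, and it did not pass the test over all genes. LCN2 from day 7 minus vehicle was -0.08 ± 0.13, with -0.09, -0.17 and 0.02 within the numbers. By number, C1qa differed by -0.02 ± 0.08.

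C1qb, the B chain, had log2 levels for numbers 1, 2 and 3 of 12.14, 12.11 and 11.97 with LCN2 from day 0, 12.21, 12.14 and 12.10 with LCN2 from day 7, and 12.27, 12.16 and 11.83 with vehicle. LCN2 from day 0 minus vehicle was -0.01 ± 0.13 and LCN2 from day 7 minus vehicle 0.07 ± 0.13, so the A chain's lower levels with LCN2 from day 0 had no counterpart of that size in the B chain. The difference between the A and B chains in this respect was not tested. C1qc, the C chain, had log2 levels of 11.65, 11.27 and 10.94 with LCN2 from day 0, 11.47, 11.16 and 11.40 with LCN2 from day 7, and 11.60, 11.41 and 11.33 with vehicle. LCN2 from day 0 minus vehicle was 0.05, -0.14 and -0.39 within numbers 1, 2 and 3, for a fitted value of -0.16 ± 0.18. By number, the arrays numbered 1 lay above all others, by 0.32 ± 0.11, which did not pass the test with the settings used here but did under 4 of the alternatives.

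Counted over the 9 tested members, 3 (Mertk, Mfge8 and Thbs1) were higher and 1 (Axl) was lower on the arrays numbered 1, beside 11.0% higher and 22.1% lower among all 10042 genes. Thbs1 was in this count because its high arrays carried it past the filter. Of the 8 members whose mean was not below the filter's level on either side, 2 were higher and 1 lower. The members' median difference by number was 0.16, against -0.06 over all genes (log2). For 5 members (Mertk, Axl, Mfge8, Thbs1 and C1qc) the arrays numbered 1 did not overlap the others, as for 35.4% of all genes. Since the members were chosen with this split known, the counts are a description of the choice. Number 2 did not overlap number 3 for Gas6 and C1qb, and for 8.54% of all genes.

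**Figure D3:**
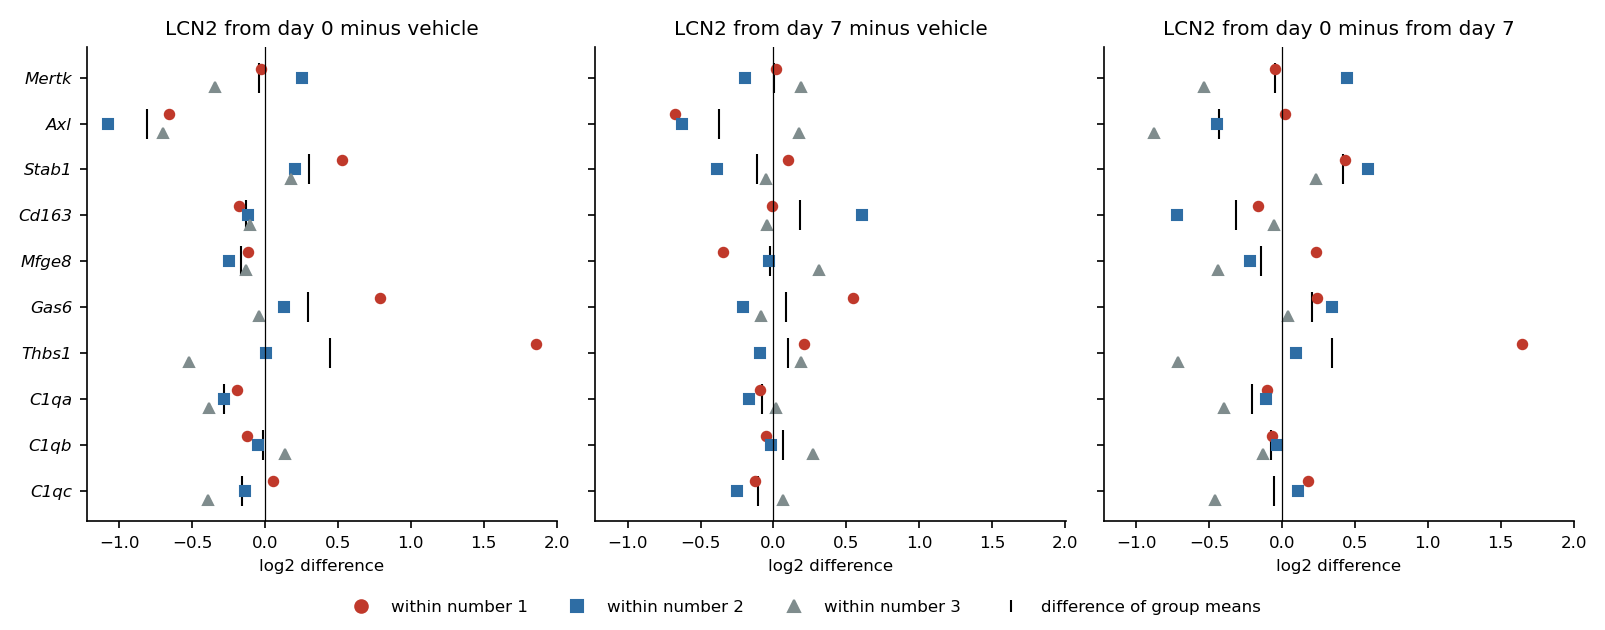
Log2 difference (x axis) of each member between groups, with 1 panel for each comparison. Points are the differences within numbers 1, 2 and 3, and the vertical tick is the difference of the group means. Axl, Mfge8, C1qa and the dim Cd163 lie below 0 and Stab1 above 0 within all 3 numbers for LCN2 from day 0 minus vehicle, and no member keeps 1 direction for LCN2 from day 7 minus vehicle.

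Between treatments, 0 of the 9 tested members passed the test in any comparison, as for 0% of all genes. LCN2 from day 0 and vehicle did not overlap for 1 tested member, C1qa, and for 5.49% of all genes. The direction within all 3 numbers was the same for 4 members in that comparison, lower for Axl, Mfge8 and C1qa and higher for Stab1, and for 27.2% of all genes. For LCN2 from day 7 against vehicle no tested member was free of overlap, against 3.17% of all genes, and none kept 1 direction within the numbers, against 21.7%. Between LCN2 from day 0 and LCN2 from day 7, Stab1 alone among the tested members did not overlap, against 5.0% (502 of 10042) of all genes. In that comparison Stab1 and Gas6 were higher and C1qa and C1qb lower within all 3 numbers, and 20.9% of all genes kept 1 direction. When single arrays were left out, the difference of LCN2 from day 0 minus vehicle kept its sign for Axl, Stab1, Gas6 and C1qa and changed it for Mertk, Mfge8, Thbs1, C1qb and C1qc. Those fits had no term for the number, so each array left out changed the weight of number 1 in its group. Kept and changed signs therefore do not measure how stable the differences within numbers are. The comparisons with vehicle share its arrays, and the median member difference was -0.04 for LCN2 from day 0 and -0.02 for LCN2 from day 7 (log2), against -0.01 and 0.00 over all genes. Here, as in any RNA of whole cultures, fewer cells of a type and less RNA per cell cannot be told apart.

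**Figure D4:**
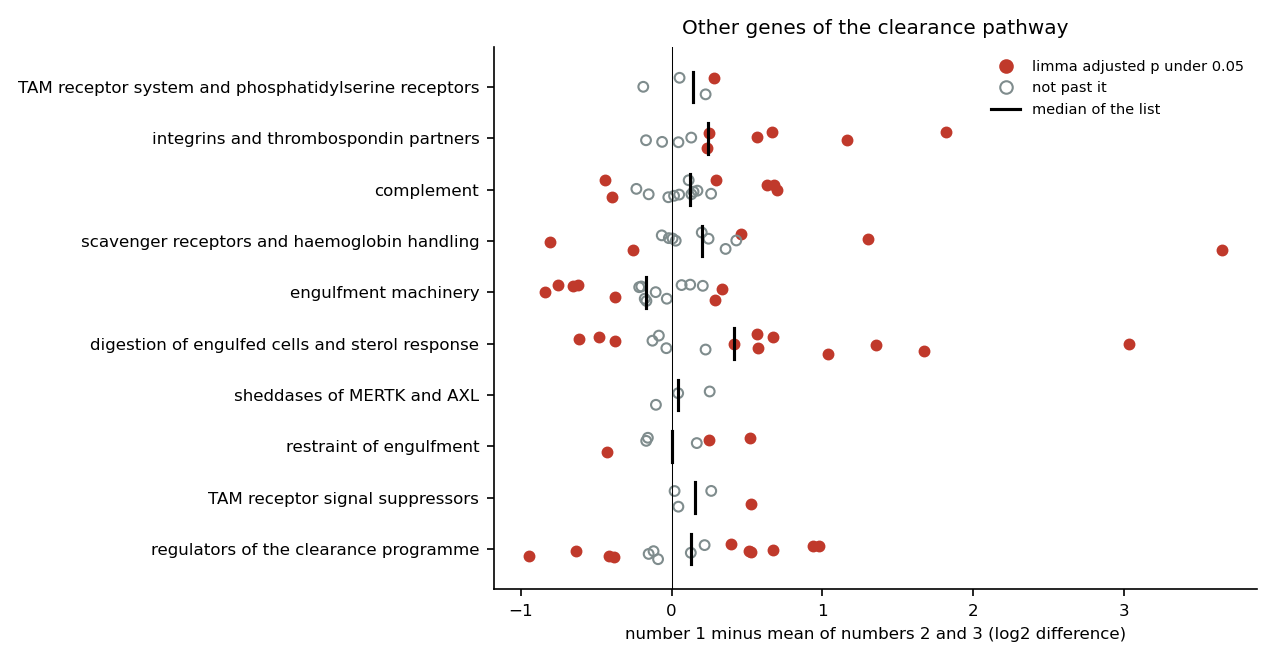
Log2 difference (x axis) of number 1 minus the mean of numbers 2 and 3 for each tested gene of the pathway lists. Filled points passed limma's adjusted p of 0.05, open points did not, and the line is the list median. The points farthest to the right are Olr1 (3.65, with a level below the filter's on numbers 2 and 3) and Abca1 (3.03), and the engulfment machinery is the list whose median lies below 0, at -0.17.

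Other genes of the pathway were read from lists fixed with the same earlier results known. In the comparisons between treatments 0 genes of any list passed the test. The counts by number stand beside 33.2% of all genes (11.0% higher and 22.1% lower). Here 6 of 10 tested integrins and thrombospondin partners were higher on the arrays numbered 1 and none was lower, and the list median was 0.24 (log2). Itgb3 and Itgb5, the beta chains of the integrins that receive MFGE8, differed by 1.16 ± 0.08 and 0.67 ± 0.08. Fn1, which encodes fibronectin, differed by 1.82 ± 0.31, and Cd36 and Cd47, which encode receptors for thrombospondin-1, by 0.24 ± 0.08 and 0.25 ± 0.08. Itgav, the alpha chain shared by those integrins, differed by 0.05 ± 0.08 and did not pass. Among 4 tested TAM and phosphatidylserine receptors and ligands, Cd300a, an inhibitory phosphatidylserine receptor, was higher by 0.28 ± 0.08 and none was lower. Without LCN2 from day 0 number 1, LCN2 from day 0 number 2, vehicle number 1 or vehicle number 2, and also with each array centred on its median or with no filter, that count was 0. Tyro3, Timd4 and Stab2, which encode other receptors of this kind, were dim.

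The list for the digestion of engulfed cells and the sterol response held the most genes past the test. Of its 15 tested genes, 8 were higher and 3 lower by number, and the list median was 0.41 (log2). Abca1, the cholesterol exporter, averaged 10.38 on the arrays numbered 1 and 7.35 on the others, a difference of 3.03 ± 0.20. Nr1h3, which encodes the sterol sensor LXR-alpha and is named in addition, with its values in view, differed by 1.04 ± 0.13. Pparg was among the 3 lower genes, at -0.61 ± 0.08. Slc7a11, a cystine importer, differed by 1.67 ± 0.17, and Sgk1, a kinase of ion transport and cell survival, by 1.35 ± 0.11.

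Of 16 tested complement genes, 4 were higher and 2 lower, a share near the 33.2% of all genes that passed by number. Itgax, which encodes a chain of a receptor for iC3b, differed by 0.70 ± 0.11, and Cd59a, a regulator of the membrane attack complex, by 0.63 ± 0.13. C5ar2, which encodes a receptor for C5a, averaged 6.20 on the arrays numbered 1 and 5.53 on the others, the second below the filter's level, so that it passed through the arrays numbered 1. Without it 3 of 15 were higher. C1ra, whose product is the protease partner of C1q, differed by 0.26 ± 0.11 and did not pass, and C1s1 was dim. Without LCN2 from day 0 number 1 the count of higher genes was 2, and without vehicle number 1 the count of lower genes was 0. The filter removed Cd55, which encodes an inhibitor of complement convertases and is named after its values were seen, although it averaged 7.82 on the arrays numbered 1 and 3.89 on the others.

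Of 13 tested scavenger receptors and haemoglobin genes, 3 were higher and 2 lower, a share near the 33.2% of all genes that passed by number. Olr1, the receptor for oxidised LDL, averaged 8.83 on the arrays numbered 1 and 5.18 on the others, the second below the filter's level of 5.66, so that it passed through the arrays numbered 1. Without it 2 of 12 were higher. Cd14, a co-receptor for lipopolysaccharide that also tethers dying cells, differed by 1.30 ± 0.09. Cd5l, which encodes a secreted macrophage scavenger protein, differed by -0.81 ± 0.13, and Hmox1, the haem-degrading enzyme that acts after CD163 uptake, by -0.26 ± 0.08, both lower. The lower count was 1 when number 1 or number 2 of any group was left out.

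Of 16 tested genes of the engulfment machinery, 2 were higher and 5 lower, with a median of -0.17 (log2). Elmo2, part of the ELMO and DOCK exchange factor for Rac, differed by -0.62 ± 0.09, Vav3, another exchange factor, by -0.66 ± 0.09, and Tulp4, of the tubby-like family, by -0.75 ± 0.09. Without LCN2 from day 0 number 1, vehicle number 1 or vehicle number 2 the count of higher genes was 0, and without LCN2 from day 0 number 2 it was 1. Of 15 tested regulators, 6 were higher and 4 lower, among them Smad3 at 0.94 ± 0.11, Il10ra at 0.67 ± 0.11 and Maf, a transcription factor of resident macrophages, at -0.95 ± 0.14. Their lower count was 2 without LCN2 from day 0 number 2 or LCN2 from day 7 number 1.

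Of 6 tested genes that restrain engulfment, Pilra (0.52 ± 0.11) and Cd47 were higher and Ptpn6, the phosphatase SHP-1 that acts below SIRP-alpha, was lower, at -0.43 ± 0.08. Their higher count was 0 without vehicle number 1 and 1 without any of 5 other arrays, namely number 1 and number 2 of each LCN2 group and vehicle number 2. A list of 4 tested genes for the suppression of cytokine signals by TAM receptors held Socs1 and Socs3, which encode induced suppressors, and Ifnar1 and Ifnar2, the interferon receptor chains through which TAM receptors induce them. Socs1 was higher by 0.53 ± 0.09 and the others did not pass, and 2 of the 4 were higher without LCN2 from day 7 number 2. Of the 3 tested genes listed for shedding, which releases MERTK and AXL from the cell surface, none passed, and Adam17 differed by 0.04 ± 0.07.

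Counts of cell-type markers by number stand beside the 33.2% of all genes that differed (11.0% higher and 22.1% lower). Of 7 macrophage markers 2 were higher and 1 lower, and their summed level was 14.44 to 14.54 on the arrays numbered 1 and 14.27 to 14.42 on the others (log2 of the summed levels). Neutrophil markers were lower for 7 of 9 tested genes (11 on the array), with 9.86 to 10.63 on the arrays numbered 1 and 11.40 to 11.86 on the others. Monocyte markers were lower for 5 and higher for 1 of 7 tested genes (9 on the array), although their summed level was 12.86 to 12.88 against 12.05 to 12.37. Cell-cycle genes were lower for 8 of 9, with 11.23 to 11.89 against 12.31 to 12.70. Megakaryocyte and platelet markers, relevant because platelets carry thrombospondin-1, were higher for 2 of 5 tested genes (7 on the array), with 11.23 to 11.52 against 10.65 to 10.99. Their mean log2 level, to which each gene on the array adds equally, differed less, at 6.77 to 6.79 against 6.62 to 6.69. Dendritic-cell markers were higher for 3 of 4 tested genes (10 on the array, 6 of them dim), with 12.14 to 12.47 against 11.40 to 11.97. The mean log2 level of the dendritic-cell list overlapped, at 6.04 to 6.29 on the arrays numbered 1 against 5.99 to 6.20 on the others. Fibroblast markers were dim for 6 of 9 genes on the array and 1 of the 3 tested was higher, with 8.58 to 8.78 against 8.45 to 8.82, and endothelial markers were dim for 5 of 6. Of 3 tested mast-cell and basophil markers 1 was higher. The erythroid and T-cell lists held 1 tested gene each, which did not pass, and the B-cell list held none. The part of these cell types in the differences of the members was not tested.

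**Figure D5:**
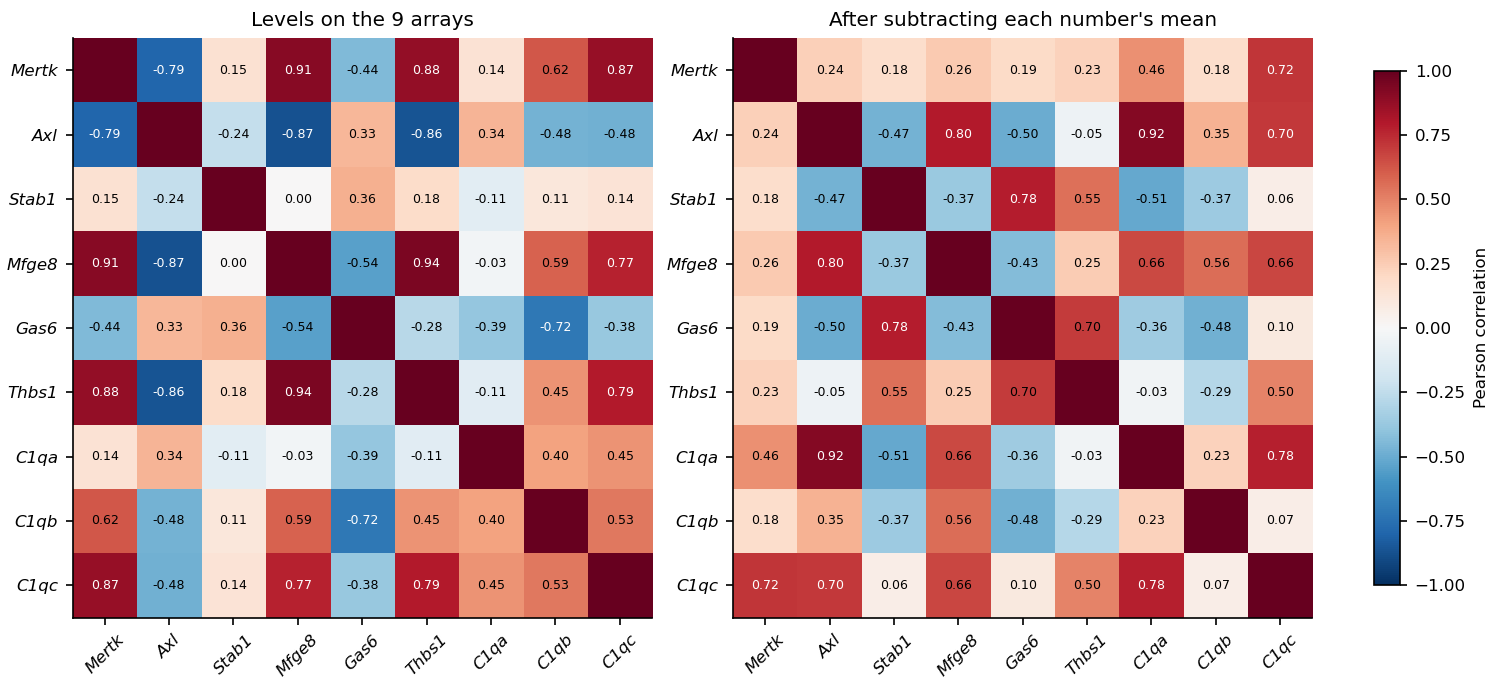
Pearson correlation between the 9 tested members over the 9 arrays, for the levels and after subtracting the mean of each title number. Axl and Mfge8 have opposite signs in the 2 panels, at -0.87 for the levels and 0.80 within numbers.

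Over the 9 arrays, which share the split by number, Mfge8 correlated with Thbs1 at 0.94 and with Mertk at 0.91, and Axl with Mfge8 at -0.87 (Pearson's r, given as a description). After the mean of each number was subtracted, Axl and Mfge8 correlated at 0.80, Axl and C1qa at 0.92, and Stab1 and Gas6 at 0.78. The C1q chains did not all move together within numbers, with 0.78 for C1qa and C1qc, 0.23 for C1qa and C1qb and 0.07 for C1qb and C1qc. The gene with the pattern most like each member was then read over the 9 arrays. For Mfge8 these were Dhcr7, Npc2 and Rgs16, at 0.995 each, for Thbs1 Gla, Gde1 and Galns (0.991 for Gla), for Mertk Msl1, Clstn1 and Ccr1 (0.981 for Msl1), and for Axl Septin6, Slfn10-ps and Elmo2 (0.984 for Septin6). Within numbers the nearest to Axl were Rai1, H2-DMa and Tor3a (0.997 for Rai1), and the nearest to C1qa were Il27ra, Safb and Flrt2 (0.995 for Il27ra). Stab1 was nearest to Gtf2b, Msr1 and Ndufc1 over the arrays (0.912 for Gtf2b). Gas6 was nearest to Smchd1, Itgb1bp1 and 2700049A03Rik (0.964 for Smchd1). Within numbers the nearest to Thbs1 were Tgfbr2, Sgsh and Cdk20, at 0.971, 0.969 and 0.962. Number 1 of LCN2 from day 0 stood out in that Thbs1 pattern, at 9.58 against 7.93 and 7.72 on the other arrays numbered 1. On numbers 2 and 3 the mean of Thbs1 lay below the filter's level.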

How the data were processed

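Total RNA was measured on 9 arrays, 3 per group. The deposited log2 levels were made by the authors with RMA and oligo, per the submitters' processing notes (versions and build are not given in the sources used here), and were used as deposited. The highest-mean probe set stood for each of 55 genes with several. Genes below the median of the probe-set means (5.66) were left out. Groups, and in a second fit title numbers with a group term, were compared in limma 3.58.1 (R 4.3.3) over all 9 arrays, with Benjamini-Hochberg adjustment over 10042 genes and a threshold of 0.05. The code was tested on simulated data. Members and lists were chosen with earlier results of these data known. Text names all members, the up to 3 list genes with the largest difference over SE, fixed partners, and 3 nearest genes by correlation. Cd55 and Nr1h3 are named in addition. The same-number arrays' deviations from group means correlated at 0.16 to 0.82 in all pairs (different numbers -0.75 to 0.69). These ranges overlap, and only number 1 stood apart. Vehicle number 3 correlated at 0.69 with number 2 of LCN2 from day 0 and at 0.47 with its number 3. For vehicle number 2 the same-number value was the higher against LCN2 from day 0, at 0.56 against 0.47. Against LCN2 from day 7 the same-number value was the lower, at 0.40 against 0.42. Pairing of numbers 2 and 3 across groups is therefore not shown, and differences within numbers and the block follow the titles alone. Precision is limited by having 9 arrays, which give intensities and not counts.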

Additional observations from a re-analysis of the deposited data

How the results depend on the processing

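The alternatives were a replicate block, other filters, the mean of probe sets, an intensity trend with robust moderation, quantile normalization, median centring, leaving out the arrays numbered 1, fitting only 2 groups, dropping the group term and leaving out each array. With the replicate block 0 genes passed in any treatment comparison, as without it and in all other alternatives, and it changed no call. The genes differing by number were 1777 without vehicle number 1, 1923 without LCN2 from day 0 number 1, and up to 3612 without another array, against 3333. Mertk, Mfge8, Thbs1 and Axl passed wherever tested, except that the stricter filter removed Mertk and Thbs1. C1qc also passed with that filter, the intensity trend, no group term, or without LCN2 from day 7 number 3, and C1qb with the intensity trend. Of the member differences, 762 moved by less than the replicate spread and 2 by more (Thbs1 above, and C1qb for number 2 minus number 3, at 0.0851 without vehicle number 3). For treatment comparisons that spread was the SD within groups, which holds the split by number. For Mfge8 with LCN2 from day 0 the SD was 1.84. The count therefore did not flag Mfge8 for LCN2 from day 0 minus vehicle, at -1.22 to 0.87, and does not show that treatment differences were stable. Of 320 list counts, 57 moved by over 1.5 times, or to or from 0. Centring each array on its median left 1 gene higher in the engulfment machinery and 1 in the restraint list, and quantile normalization gave 6 higher scavenger genes. The cause of these shifts was not tested.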
